A study of Homo sapiens with 3 samples.

Results

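The claudin and tight junction genes described here are those whose row in the deposited table is named CLDN1, CLDN3, CLDN4, CLDN7, CLDN12, OCLN, TJP1, TJP3 or CGN. These 9 genes were found among 35851 rows by name, and no measured value enters that match. The list of names itself was chosen with earlier results of these data known. The libraries were made from 5637, an established human bladder cancer line labelled as wild type, which had been transfected with small interfering RNA by a lipid reagent. One group was a single library of cells given control siRNA (siNC), and the other held 2 libraries of cells given siRNA against the transcription factor gene MYBL2 (siMYBL2-1 and siMYBL2-2). It is not stated whether the endings -1 and -2 mark 2 siRNA sequences or repeats of the same one, nor whether each library was a culture of its own. The spread behind every p-value is therefore that between these samples only, and it may be technical. The time after transfection is not stated.

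Tight junctions seal the space between neighbouring epithelial cells near their apical side and set which ions and small molecules pass between them. Claudins form the strands of the junction, occludin is a further protein that spans the membrane within them, and the zonula occludens proteins and cingulin lie beneath the membrane, where they tie the strands to the actin cytoskeleton. The urothelium, from which bladder cancers of this kind arise, relies on such junctions as a barrier to urine.

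Levels are given as RPKM, which scales the reads of a gene to its exonic length and to all assigned reads of a library, as the authors deposited them. Depth ranged from 40259436 to 46177658 assigned reads, and mitochondrial genes took 6.04% to 7.25% of them. MYBL2, the targeted gene, stood at 211 RPKM with control siRNA, at 46.0 RPKM in siMYBL2-1 and at 56.3 RPKM in siMYBL2-2. Between the siMYBL2 libraries its level differed by a factor of 0.817 (95% counting interval 0.788 to 0.846). All counting intervals are exact conditional binomial intervals on the reads recovered from the RPKM values and cover counting error only. Of the epithelial markers, EPCAM (102, 177 and 71.8 RPKM in the order siNC, siMYBL2-1, siMYBL2-2) and the keratin genes KRT5, KRT7, KRT8, KRT18 and KRT19 were well expressed in every library, KRT19 at the most (949, 800 and 716 RPKM). Of the other cell types' markers, those of fibroblasts (5 genes) summed to 1.34 to 2.04 RPKM, those of endothelium (4 genes) to 0.0937 to 0.277 RPKM and those of leukocytes (5 genes) to 0.152 to 0.221 RPKM. Of these markers COL1A1 alone exceeded 1 RPKM (1.43, 2.03 and 1.31 RPKM). In bulk RNA, fewer cells that express a gene and less of its RNA per cell cannot be told apart.

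In siMYBL2-1 every junction gene but TJP3 was measured above the control library, while in siMYBL2-2 the expressed members lay between 0.765 and 1.38 times control. CLDN4, CLDN1 and OCLN differed most, by 4.99-, 4.24- and 3.69-fold in siMYBL2-1, against 1.05-, 1.33- and 1.03-fold in siMYBL2-2. TJP1 and CGN were 2.12- and 2.05-fold higher in siMYBL2-1, CLDN7 was 1.64-fold higher and CLDN12 1.07-fold. CLDN3 and TJP3 were close to the detection limit throughout. No member passed the test that takes both siMYBL2 libraries together.

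**Figure D1:**
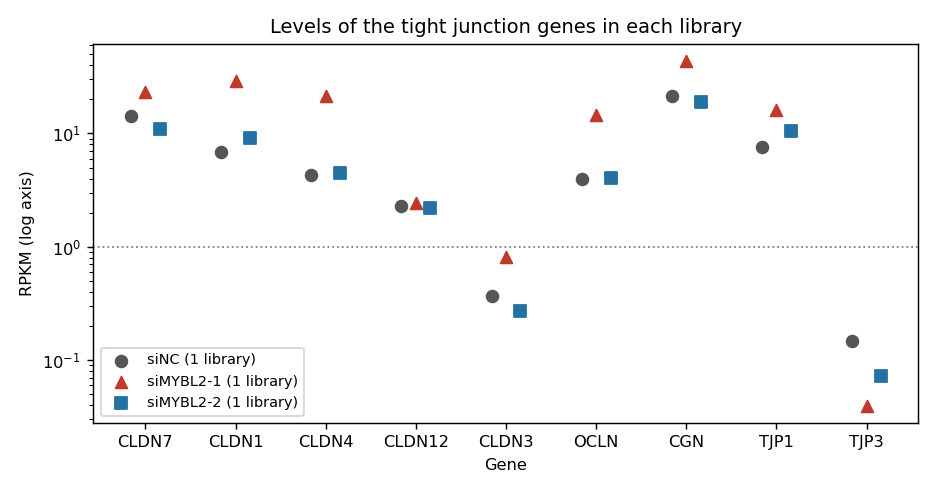
RPKM of each gene (log axis) in the siNC library (circles), siMYBL2-1 (triangles) and siMYBL2-2 (squares), 1 library each, with a dotted line at 1 RPKM. The siMYBL2-1 point is the highest of the 3 for every gene but TJP3, while the siNC and siMYBL2-2 points lie close together for CLDN4, CLDN12 and OCLN.

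Among the claudins, CLDN1 encodes a strand-forming claudin that tightens the epithelial barrier. Its row is on chromosome 3 (190305701 to 190322475, minus strand, hg38). CLDN1 was measured at 6.84 RPKM in the control library, from 1008 reads. It stood at 29.0 RPKM in siMYBL2-1 and 9.10 RPKM in siMYBL2-2, from 4436 and 1540 reads (siMYBL2 mean 19.0 ± 14.0 RPKM, SD, n = 2). The siMYBL2-1 library was thus high and the other 2 were low, with siMYBL2-2 above the control by 1.33-fold (counting interval 1.23 to 1.44). The distance from control to siMYBL2-1 was 4.24-fold (3.96 to 4.54).

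CLDN4, another barrier-forming claudin and a receptor for a clostridial enterotoxin, lies on the plus strand of chromosome 7 (73799542 to 73832693). CLDN4 stood at 4.26 RPKM with control siRNA, 21.3 RPKM in siMYBL2-1 and 4.46 RPKM in siMYBL2-2, from 807, 4182 and 968 reads (siMYBL2 mean 12.9 ± 11.9 RPKM, SD, n = 2). Here siNC and siMYBL2-2 could not be separated by counting (ratio 1.05, interval 0.952 to 1.15), whereas siMYBL2-1 exceeded the control 4.99-fold (4.63 to 5.39). CLDN3, which belongs to the same claudin subgroup, lies beside CLDN4 on chromosome 7 (73768997 to 73770270, minus strand). It was barely expressed, with 19 reads in the control (0.370 RPKM), 43 in siMYBL2-1 (0.807 RPKM) and 16 in siMYBL2-2 (0.272 RPKM). The CLDN3 ratio to control was 2.18 (1.24 to 3.96) in siMYBL2-1 and 0.734 (0.353 to 1.51) in siMYBL2-2.

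CLDN7 encodes a claudin that is also found along the lateral membrane of epithelial cells. Its place is chromosome 17 (7259903 to 7263983, minus strand). CLDN7 measured 14.2 RPKM in the control library, 23.3 RPKM in siMYBL2-1 and 10.9 RPKM in siMYBL2-2, from 1426, 2428 and 1252 reads. The siMYBL2 libraries lay on opposite sides of the control, at 1.64 (1.53 to 1.75) and 0.765 (0.709 to 0.826) times its level. Of the exonic bases of CLDN7, 87.7% belong to no other row, and the rest overlap ELP5 on the opposite strand and a row named by its clone on the same one. CLDN12, a claudin that lacks the binding motif for junction scaffolds at its end, had the smallest difference of the expressed members. Its levels were 2.28 RPKM (618 reads), 2.44 RPKM (688 reads) and 2.21 RPKM (688 reads) in the same order, and neither ratio to control (1.07, interval 0.960 to 1.20, and 0.971, 0.869 to 1.08) was separated from 1 by counting. CLDN12 (chromosome 7, 90383721 to 90513402) shares exonic bases with same-strand rows that include GTPBP10 and CDK14, and 83.7% of its bases are its own.

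OCLN encodes occludin, which shapes the strands and regulates the passage of larger molecules. OCLN (chromosome 5, 69492292 to 69558104, plus strand) was at 3.92 RPKM with control siRNA, 14.5 RPKM in siMYBL2-1 and 4.05 RPKM in siMYBL2-2, from 1068, 4095 and 1265 reads (siMYBL2 mean 9.27 ± 7.38 RPKM, SD, n = 2). Like CLDN4, it was high in 1 library and indistinguishable by counting between the other 2 (ratio of siMYBL2-2 to control 1.03, interval 0.951 to 1.12). A partial copy, the pseudogene OCLNP1, lies on the same chromosome (71074225 to 71093193). The row at that position held 60, 142 and 91 reads, and how the authors' counting split reads that fit both places is not stated, so the values of OCLN are uncertain to that extent.

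Of the scaffold genes, CGN encodes cingulin, which links the junction to actomyosin, and was the most abundant member in every library. CGN (chromosome 1, 151510510 to 151538692, plus strand) measured 21.2 RPKM with control siRNA, 43.4 RPKM in siMYBL2-1 and 18.8 RPKM in siMYBL2-2, from 5639, 11994 and 5744 reads. These levels are 2.05 (1.98 to 2.11) and 0.888 (0.856 to 0.921) times control. TJP1 encodes ZO-1, the scaffold that gathers claudins into strands. TJP1 (chromosome 15, 29699367 to 29968865, minus strand) was at 7.65 RPKM with control siRNA, 16.2 RPKM in siMYBL2-1 and 10.5 RPKM in siMYBL2-2, from 3468, 7653 and 5476 reads. Of the members it was the one with the largest ratio in siMYBL2-2, 1.38 (1.32 to 1.44), beside 2.12 (2.04 to 2.21) in siMYBL2-1, and both siMYBL2 libraries lay above the control. TJP3, which encodes the related scaffold ZO-3 (chromosome 19, 3708109 to 3750813, plus strand), had 25, 7 and 14 reads (0.147, 0.0397 and 0.0719 RPKM). It was the only member below control in siMYBL2-1, at 0.270 times its level (0.0984 to 0.641).

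Across the siMYBL2 group the order of mean levels was CGN (31.1 ± 17.4 RPKM), CLDN1 (19.0 ± 14.0), CLDN7 (17.1 ± 8.78), TJP1 (13.4 ± 4.04), CLDN4 (12.9 ± 11.9), OCLN (9.27 ± 7.38), CLDN12 (2.33 ± 0.163), CLDN3 (0.540 ± 0.378) and TJP3 (0.0558 ± 0.0228), each an SD over 2 libraries. Each of the first 6 steps in this order was smaller than the larger SD of the pair it separates. With control siRNA the order ran CGN, CLDN7, TJP1, CLDN1, CLDN4, OCLN, CLDN12, CLDN3 and TJP3, and in siMYBL2-1 CLDN1 and CLDN4 moved ahead of TJP1. Relative to the genes tested, CLDN4 stood above 46.9% of them in siNC, 84.8% in siMYBL2-1 and 49.3% in siMYBL2-2. OCLN stood above 44.3%, 78.6% and 46.4% in the same order.

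The 22 claudin rows of the table summed to 33.1 RPKM with control siRNA, 86.5 RPKM in siMYBL2-1 and 30.9 RPKM in siMYBL2-2. CLDN7 made up the largest share with control siRNA (42.9%) and in siMYBL2-2 (35.3%), whereas CLDN1 did so in siMYBL2-1 (33.5%, against 26.9% for CLDN7). The share of CLDN4 was 12.9%, 24.6% and 14.5% in the same order of libraries. Among the 17 claudin rows outside the members, CLDN23 alone reached a mean of 1 RPKM, at 3.07, 8.05 and 2.48 RPKM from 268, 730 and 248 reads in the same order. Its ratios to control were 2.62 (2.28 to 3.03) and 0.807 (0.676 to 0.962). CLDN5 and CLDN25 were not analysed here.

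**Figure D2:**
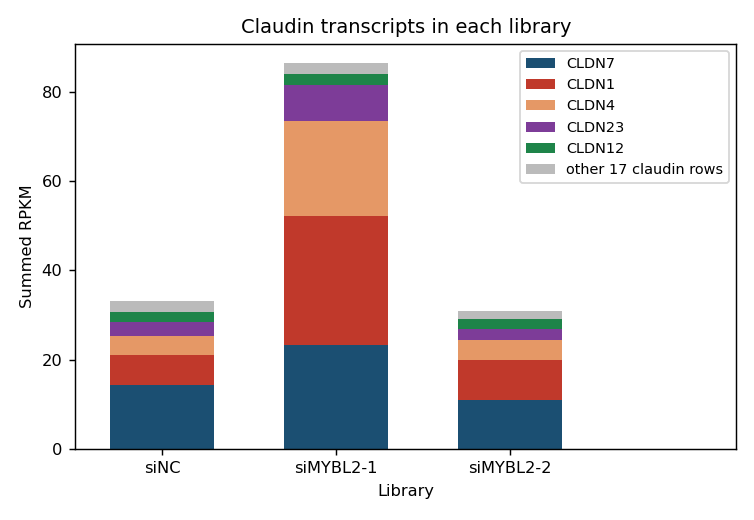
Stacked bars of the RPKM of the claudin rows in each of the 3 libraries, starting at 0. The bar of siMYBL2-1 reaches 86.5 RPKM, against 33.1 in siNC and 30.9 in siMYBL2-2, and CLDN1 and CLDN4 take up a larger part of it.

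To compare the knockdown with the control over the whole table, limma was fitted to log2(RPKM + 1) for 13274 genes whose mean over the libraries reached 1 RPKM. On this scale the difference of low genes is understated. There were 7 such members, all but CLDN3 and TJP3. None of these 7 passed at an adjusted p of 0.05, where 0.00753% of all genes tested did (1 gene, ANKRD1, at 3.14, 93.0 and 40.9 RPKM, named after its values were seen). CLDN1 had the largest mean log2 change, 1.15 (SE 0.51, limma p 0.0481, adjusted p 0.999), and it was the only member with an unadjusted p under 0.05. That p ranged from 0.0258 by limma-voom to 0.348 without a filter on low values, and was above 0.05 under 4 of 6 alternative settings. CLDN4 followed at 1.07 (SE 0.62), OCLN at 0.84 (SE 0.52) and TJP1 at 0.71 (SE 0.33). For CGN, CLDN7 and CLDN12 the changes were 0.42 (SE 0.43), 0.16 (SE 0.40) and 0.02 (SE 0.28). The adjusted p was 0.999 for each of the 7. The single siNC library was assumed to vary like the siMYBL2 pair, and the error of each gene combines the difference within that pair with the spread over all genes tested. MYBL2 itself, the siRNA target, did not pass in this fit either, at a log2 change of -2.03 (SE 0.30). Of the alternative settings, it passed by limma-voom only. A difference of the junction genes between the groups was thus not detectable at this spread. Failing this test does not show that a gene was unchanged.

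Each siMYBL2 library was then set against control on its own, with no test, since this is 1 library against 1. The 2 comparisons share the siNC library. The members were chosen with earlier results of these data known, so their shares beside those of all genes are description only. In siMYBL2-1, 7 of the 7 members tested were above control, where 45.3% of all genes tested were, and the median log2 ratio was 1.00 beside -0.04 for all genes. A log2 ratio of at least 1 was reached by 4 of the 7 (CLDN4, CLDN1, OCLN and CGN) against 2.15% of all genes. CGN at 1.0003 and TJP1 at 0.996 lie just inside and just outside that limit, and by the plain RPKM ratio 5 of the 7 were at least 2-fold higher, against 4.22% of all genes. Ordered from the highest log2 ratio among the 13274 genes, CLDN4 was at rank 35, CLDN1 at 44 and OCLN at 71. CGN and TJP1 followed at ranks 286 and 292, CLDN7 at 774 and CLDN12 at 5069.

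In siMYBL2-2, 4 of the 7 members were above control, beside 48% of all genes tested, and the median log2 ratio was 0.04 beside -0.01. None of the 7 reached a log2 ratio of 1, which 0.422% of all genes did. The largest ratios were those of TJP1 (0.41, rank 872) and CLDN1 (0.37, rank 1155), and the smallest that of CLDN7 (-0.36). CLDN4 and OCLN, at ranks 5331 and 5638, sat near the middle of all genes.

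**Figure D3:**
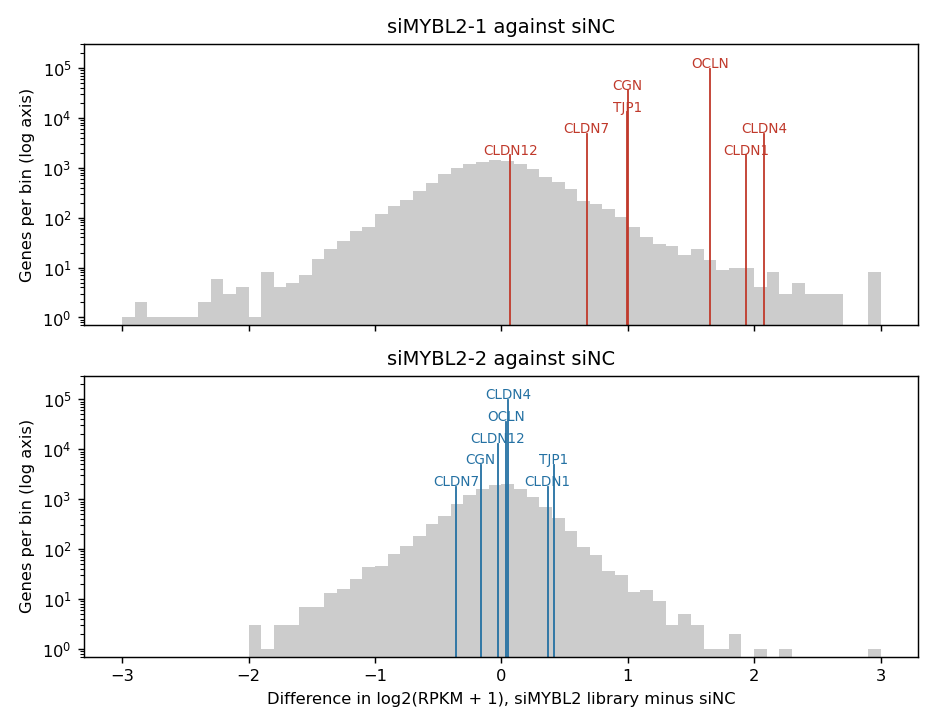
Histograms (log count axis) of the difference in log2(RPKM + 1) from siNC over the 13274 genes tested, for siMYBL2-1 above and siMYBL2-2 below, with values past 3 drawn in the end bins and lines at the 7 members tested. CLDN4, CLDN1 and OCLN lie in the upper tail of siMYBL2-1 (2.08, 1.93 and 1.65). In siMYBL2-2 CLDN4 and OCLN lie near the middle (0.05 and 0.04), and CLDN1 lies above it (0.37, rank 1155 of 13274).

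The siMYBL2 libraries were also compared with each other, again 1 against 1 and with the same limit on how the members were chosen. CLDN4 was 4.77-fold higher in siMYBL2-1 than in siMYBL2-2 (4.45 to 5.12), OCLN 3.57-fold (3.36 to 3.81) and CLDN1 3.18-fold (3.00 to 3.37). CGN was 2.31-fold higher (2.23 to 2.38), CLDN7 2.14-fold (2.00 to 2.29), TJP1 1.54-fold (1.49 to 1.60) and CLDN12 1.10-fold (0.992 to 1.23). A log2 ratio of at least 1 on the log2(RPKM + 1) scale was thus reached by 5 of the 7, where 1.94% of all genes tested reached it. For MYBL2 the same ratio was 0.817, as given above, a smaller difference than that of these members other than CLDN12.

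Other genes of the junction, from lists fixed with earlier results of these data known, gave a mixed picture, and none of them passed limma. Of 10 other membrane genes 6 were tested, with median log2 ratios of 0.03 in siMYBL2-1 and -0.10 in siMYBL2-2. LSR, the lipolysis-stimulated receptor of the corners where 3 cells meet, was at 19.9, 32.8 and 19.6 RPKM in the order of libraries used above. The adhesion molecule gene F11R (JAM-A) was at 16.9, 16.9 and 11.9 RPKM, CXADR at 2.46, 1.82 and 2.07 RPKM and the polarity gene CRB3 at 2.26, 1.79 and 1.61 RPKM. LSR alone of these 4 was thus above control in siMYBL2-1. Of all 6 tested, however, 3 were above control there, and all 6 were below it in siMYBL2-2. MARVELD2 (1.29, 2.13 and 1.28 RPKM) and MARVELD3 (5.66, 5.99 and 5.48 RPKM) were the others above control in siMYBL2-1. Both were named after their values were seen.

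Of 17 other scaffold and polarity genes 15 were tested, 6 above and 9 below control in siMYBL2-1, with medians of -0.10 and -0.06. Over the 6 that average 5 RPKM or more the siMYBL2-1 median was 0.10. PARD6B, a polarity adaptor, was at 2.00, 5.25 and 2.41 RPKM, and ARHGEF2, a signalling gene whose product is held at junctions, at 3.43, 6.54 and 3.97 RPKM. CGNL1, which encodes paracingulin, the close relative of cingulin, was below control where CGN was above it in siMYBL2-1. It had 1138 reads in the control (3.26 RPKM), 470 in siMYBL2-1 and 983 in siMYBL2-2 (2.46 RPKM), or 0.398 (0.356 to 0.443) and 0.753 (0.691 to 0.821) times control.

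Adherens junctions lie just below tight junctions and hold cells together through cadherins and nectins. Over 10 such genes the medians were 0.35 and -0.11, with 6 above control in siMYBL2-1 and 3 in siMYBL2-2. VCL (vinculin) was at 6.64, 12.5 and 10.2 RPKM, NECTIN2 at 17.8, 33.9 and 16.4 RPKM, NECTIN1 at 12.0, 7.53 and 7.58 RPKM and NECTIN4 at 10.4, 8.06 and 5.31 RPKM. CDH1, which encodes E-cadherin and was named after its values were seen, followed the pattern of CLDN7, at 14.8, 36.2 and 8.98 RPKM.

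**Figure D4:**
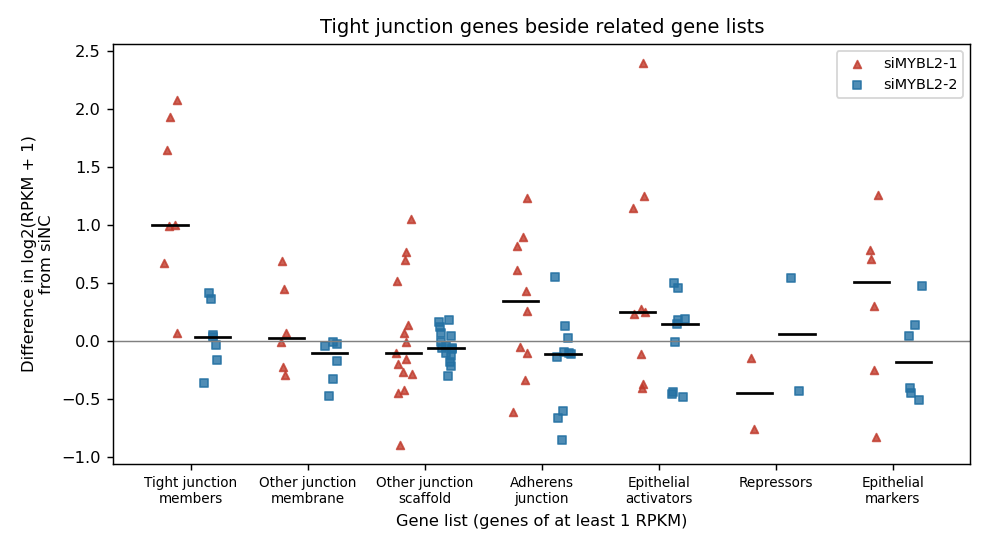
Difference in log2(RPKM + 1) from siNC for the tested genes of each list, in siMYBL2-1 (triangles) and siMYBL2-2 (squares), with a bar at each median. The tight junction members have a median of 1.00 in siMYBL2-1 and of 0.04 in siMYBL2-2, while the medians of the membrane and scaffold lists shown lie between -0.10 and 0.03 (CLDN23, the 1 other claudin tested, is not drawn and had 1.15 and -0.23). In the same order of libraries the medians are 0.51 and -0.18 for epithelial markers and 0.35 and -0.11 for adherens junction genes. They are 0.25 and 0.15 for activators and -0.45 and 0.06 for repressors.

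Transcription factors known to act on junction genes were measured in the same libraries, and none passed limma. Of 9 factors that favour epithelial genes, 3 had a log2 ratio of at least 1 in siMYBL2-1 (2.15% of all genes did), and the medians were 0.25 and 0.15. Over the 5 of them that average 5 RPKM or more the medians were -0.11 and -0.0060. GRHL3, a grainyhead-like factor of barrier formation, was at 0.712 RPKM with control siRNA, 8.03 RPKM in siMYBL2-1 and 1.42 RPKM in siMYBL2-2, from 113, 1323 and 258 reads, which is 11.3-fold (9.30 to 13.8) and 1.99-fold (1.59 to 2.51) above control. Its siNC level was under the filter of 1 RPKM, so its place among the 3 rests on the siMYBL2 libraries, mainly siMYBL2-1. OVOL1 was at 1.17, 4.16 and 1.99 RPKM and KLF4 at 2.61, 6.99 and 3.09 RPKM, whereas KLF5 was at 84.4, 65.0 and 61.3 RPKM. Only 2 of the 6 repressors of epithelial genes had a mean of 1 RPKM. SNAI2 was at 10.6, 9.51 and 15.9 RPKM and TWIST1 at 4.31, 2.14 and 2.94 RPKM. SNAI1, named after its values were seen, had 2, 50 and 6 reads, a ratio of 24.1 (6.32 to 204) in siMYBL2-1 at a level of 0.709 RPKM. ZEB1, also named after its values were seen, had 30, 58 and 200 reads, 1.86-fold (1.18 to 3.00) and 5.81-fold (3.95 to 8.84) above control, so it was highest in siMYBL2-2. ZEB2, named likewise and with the most reads of the repressors under the filter, did not rise. It had 770, 759 and 734 reads, or 0.949 (0.857 to 1.05) and 0.831 (0.750 to 0.921) times control. TWIST2 had 0, 2 and 0 reads.

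Beyond these lists, the genes nearest to CLDN1 and CLDN4 were sought by distance in the plane of both log2(RPKM + 1) ratios to siNC, which are 2 values from 3 libraries, among 6347 other genes of at least 5 RPKM. Nearest to CLDN1 were RNA5SP392, a 5S ribosomal pseudogene with 22, 101 and 39 reads in the usual order of libraries (distance 0.172), F2RL1, a protease-activated receptor gene (4.84, 19.5 and 7.34 RPKM, distance 0.192), and SFN, which encodes 14-3-3 sigma (185, 739 and 276 RPKM, distance 0.216). RNA5SP392 (4.88 RPKM) and F2RL1 were under 5 RPKM in siNC, so their inclusion rests on the siMYBL2 libraries, mainly siMYBL2-1. Among the nearest to CLDN4 were the row RP11-400N13.2 (10.4, 47.8 and 11.4 RPKM, distance 0.0731) and the cytokine subunit gene IL23A (19.7, 73.7 and 21.8 RPKM, distance 0.245).

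The members' promoters were read for motifs of factors named by the study or known at junction genes. RefSeq windows (GRCh38.p14, 250 bases before to 50 after each start site) were matched by symbol for 9 of the 9 genes, 15 windows in all. CLDN4, CLDN1 and OCLN are printed as the members with the largest ratios, CLDN12 as the expressed member with the smallest, and CLDN7 for its repeated E-boxes. Capitals mark matches on either strand to the MYB core AACNG, the E-box CAGGTG and the AP-1 motif TGANTCA. The windows are CLDN4 at chr7:73830746-73831045 (plus strand), CLDN1 at chr3:190322397-190322696 (minus), OCLN at chr5:69492297-69492596 (plus), CLDN12 at chr7:90403211-90403510 (plus) and CLDN7 at chr17:7262429-7262728 (minus), each read 5′ to 3′ along its gene.
CLDN4: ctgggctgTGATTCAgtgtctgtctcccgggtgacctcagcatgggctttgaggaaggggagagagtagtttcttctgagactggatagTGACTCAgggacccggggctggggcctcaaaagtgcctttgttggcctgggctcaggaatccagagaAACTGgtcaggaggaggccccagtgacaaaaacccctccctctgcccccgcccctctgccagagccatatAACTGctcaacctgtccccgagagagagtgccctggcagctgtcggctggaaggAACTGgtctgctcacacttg
CLDN1: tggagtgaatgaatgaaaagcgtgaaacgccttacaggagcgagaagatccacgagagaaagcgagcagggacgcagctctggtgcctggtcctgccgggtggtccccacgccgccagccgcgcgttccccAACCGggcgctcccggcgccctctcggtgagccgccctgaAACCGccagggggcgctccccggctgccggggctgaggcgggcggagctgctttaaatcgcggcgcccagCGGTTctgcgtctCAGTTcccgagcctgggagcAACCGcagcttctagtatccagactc
OCLN: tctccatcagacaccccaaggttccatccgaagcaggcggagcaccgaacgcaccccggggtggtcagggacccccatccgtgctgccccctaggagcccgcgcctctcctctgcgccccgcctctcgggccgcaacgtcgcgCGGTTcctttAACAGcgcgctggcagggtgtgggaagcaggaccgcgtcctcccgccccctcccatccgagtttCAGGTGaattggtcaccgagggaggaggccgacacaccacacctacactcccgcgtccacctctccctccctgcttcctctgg
CLDN12: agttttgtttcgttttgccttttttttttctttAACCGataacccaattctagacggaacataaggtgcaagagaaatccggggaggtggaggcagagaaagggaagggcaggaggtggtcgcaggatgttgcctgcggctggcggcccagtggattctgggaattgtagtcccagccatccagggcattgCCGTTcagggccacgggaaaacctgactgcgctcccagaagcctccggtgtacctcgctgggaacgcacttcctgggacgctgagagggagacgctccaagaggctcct
CLDN7: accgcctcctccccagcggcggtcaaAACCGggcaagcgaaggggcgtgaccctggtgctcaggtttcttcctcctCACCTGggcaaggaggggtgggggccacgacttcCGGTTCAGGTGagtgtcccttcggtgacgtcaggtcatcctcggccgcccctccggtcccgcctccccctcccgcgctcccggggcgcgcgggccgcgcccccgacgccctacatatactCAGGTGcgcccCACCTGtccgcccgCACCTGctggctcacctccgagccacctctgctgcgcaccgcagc

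The AP-1 motif TGANTCA was found in 1 of the 15 member windows, that of CLDN4, with matches that begin at -242 and -161 from the start site, while 7.71% of all 35116 windows hold at least 1. The E-box CAGGTG, which SNAI and ZEB repressors bind, was present in 6 of the 15 member windows, at 5 genes (CLDN3, CLDN7, OCLN, TJP1 and TJP3), and in 20.6% of all windows. The printed CLDN7 window holds 5 matches, but the other CLDN7 window, nearer to the 5′ end of the deposited row, holds 0. OCLN has 1 at -33 and a second window with 2 more. The MYB core AACNG was present in 14 of the 15 member windows, at 8 of the 9 genes (all but CLDN3), and in 77.2% of all windows. CLDN1 holds 5 such matches, CLDN4 holds 3 and CLDN12 and OCLN hold 2 each in the windows printed. No member window holds the CHR element (TTTGAA or TTCGAA, 16.4% of all windows), the TEAD motif GGAATG (14.0%) or the grainyhead-like motif AACCGGTT (0.134%), whose letters include a MYB core. The GC box GGGCGG occurred in 11 of the 15 member windows, at 8 genes, and in 45.0% of all windows. The deposited CLDN4 row begins 31454 bases before the RefSeq start site used here, and that of CLDN12 19740 bases before, so these windows are not the only places where their transcripts may start. A match describes letters in a window and is not a measured binding site.

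**Figure D5:**
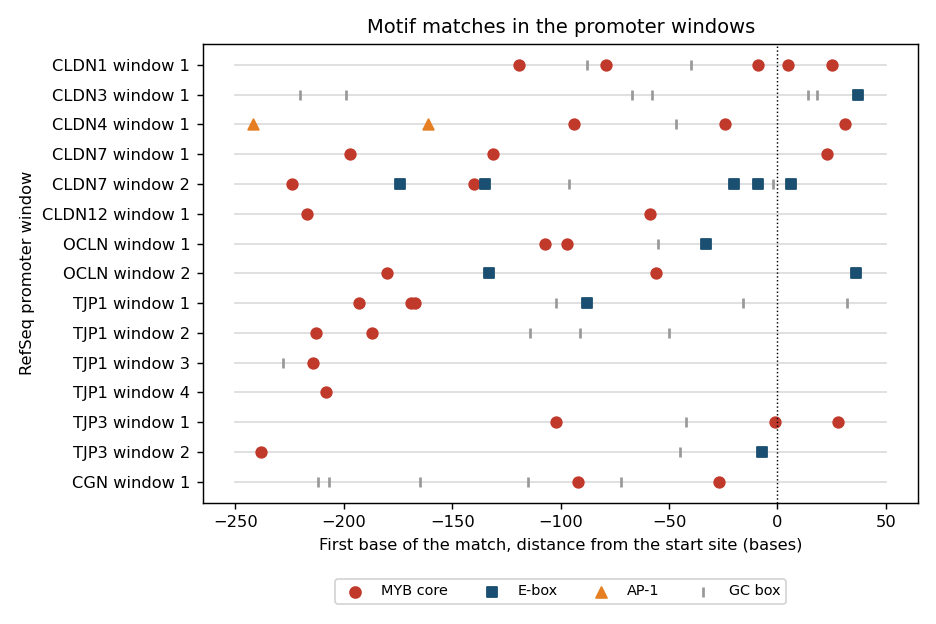
First base of each motif match, as distance in bases from the start site, in the 15 RefSeq windows of the 9 genes (windows numbered by nearness to the deposited row's 5′ end). The AP-1 matches lie in the CLDN4 window, at -242 and -161, and the E-boxes are most frequent in the second CLDN7 window.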

How the data were processed

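Poly(A) RNA was sequenced from siRNA-transfected 5637 cells, with strand marked by dUTP per the labels' protocols. The authors deposited 1 table of RPKM values with exon intervals and lengths for 35851 rows, per the file headers. The submitters' processing notes name cutadapt 1.9, HISAT2 2.0.4, StringTie 1.3.4d and hg38 without roles. No source used here gives the counter, its strand setting or the annotation, so reads from overlapping genes cannot be assigned to either.

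Reads behind each value were recovered from RPKM times length, and 100% of values came out whole within 0.001 reads. Plain ratios carry exact conditional binomial 95% intervals (scipy 1.17.1). The test was limma-trend (limma 3.58.1, R 4.3.3) on log2(RPKM + 1) for genes averaging 1 RPKM or more. It was Benjamini-Hochberg adjusted over all 13274, threshold 0.05. The code was tried first on simulated counts with the same dispersion for every gene. That trial does not show how the test performs at the spread of these libraries. The fit had 10.2 degrees of freedom after moderation. RPKM is a share of assigned reads, so higher values of some genes lower those of others.

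Members and lists were chosen with earlier results of these data known. Named from each list were up to 4 tested genes with the largest mean log2 ratio in size, and every claudin averaging at least 1 RPKM. Also named were the 3 genes averaging at least 5 RPKM nearest in pattern to CLDN1 and to CLDN4. Older row names (MPP5 for PALS1, MLLT4 for AFDN) were matched through RefSeq synonyms. Some genes that this rule names are not reported here.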

Additional observations from a re-analysis of the deposited data

How the results depend on the processing

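Over the pseudocount of 0.1 RPKM, no filter, a filter at 5 RPKM, median ratio scaling, scaling without mitochondrial genes and limma-voom on the recovered reads, 0 members were called in each, with a lowest adjusted p between 0.705 and 1.00. At an unadjusted p under 0.05 there was 1 member (CLDN1), 1 with the pseudocount of 0.1 RPKM, 2 by limma-voom (CLDN1 and TJP1) and 0 under the other 4 settings. The number of genes called over the whole table was 1, and became 0 without the filter, with the filter at 5 RPKM and under both scalings, and 10 by limma-voom. Of 55 single member changes, 3 turned direction, each without siMYBL2 replicate 1: CGN was at -0.16 without siMYBL2 replicate 1 and at 1.00 without replicate 2, CLDN7 at -0.36 and 0.68, and CLDN12 at -0.030 and 0.070. The median log2 change of the members, 0.71, lay between 0.42 and 0.78 under these settings. It was 0.04 without siMYBL2 replicate 1 and 1.00 without siMYBL2 replicate 2, so the size of the members' change rests on which siMYBL2 library is used. Without the filter, which adds CLDN3 and TJP3, the siMYBL2-2 median was -0.03 in place of 0.04. Under median ratio scaling or the pseudocount of 0.1 RPKM, 5 in place of 4 members had a log2 ratio of at least 1 in siMYBL2-1, the added gene being TJP1. Of 76 medians of the other lists, 8 moved by more than the spread between the siMYBL2 libraries, all without the filter or with the filter at 5 RPKM. No paired analysis was possible because there is 1 siNC library and its label carries no number. CLDN3 and TJP3, with 7 to 43 reads per library, are limited by depth.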
